A study of Cricetiscus sungorus with 24 samples.

Results

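The genes described are 10 genes of calcium and magnesium handling in the distal tubule and thick ascending limb of the kidney, Kl, Vdr, Calb1, S100g, Trpv5, Trpm6, Atp2b1, Casr, Umod and Egf. They were chosen by name, and the mouse transcript with most reads in an experiment stands for each gene. Of the 10, 6 were among the 9681 genes listed in experiment 1 and 9 were among the 15842 genes listed in experiment 2. Trpv5 was listed in neither table and was not analysed here.

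Most calcium that escapes the proximal tubule and the thick limb is recovered in the distal convoluted and connecting tubules. There, calcium enters through the apical channel TRPV5, is carried by the calbindins (Calb1 and the smaller S100g) and leaves through the plasma membrane calcium pump (Atp2b1) and the sodium-calcium exchanger. TRPM6 is the matching channel for magnesium, and Egf made by the distal tubule is known to stimulate it. Klotho (Kl) is the co-receptor of the phosphate-lowering hormone FGF23, the vitamin D receptor (Vdr) induces calbindins in many tissues, and the calcium-sensing receptor (Casr) limits salt and calcium recovery in the thick limb. Uromodulin (Umod) is the thick limb glycoprotein that is the main protein of normal urine.

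Kidney RNA of Djungarian hamsters (Phodopus sungorus) was read as cDNA on nanopore flow cells, 1 per experiment, and each read was named by its alignment to mouse transcripts. Experiment 1 held adult males in a long photoperiod (LP, 16 h light and 8 h dark, n = 4), or after 12 or 28 weeks in a short photoperiod of 8 h light and 16 h dark (SP12wk and SP28wk, n = 4 each). Experiment 2 held adult females moved from LP to SP for 8 weeks and then injected on 3 days with vehicle (SAL, n = 6) or with 18 µg of PRL per day (n = 6). The first experiment asks how these genes follow the seasonal cycle, and the second whether PRL changes them in SP. SAL is named for saline, but its vehicle was DMSO and saline in equal parts, and the PRL animals received the same vehicle. The code of the PRL preparation names it as the ovine hormone. The animals were of hamster stock without a genetic change named in the labels, their age was given only as adult, and the 2 sexes were never in 1 experiment.

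Reads are given as CPM, that is, scaled to the library total over 1 transcript per gene. Totals ran from 15688 to 57585 for experiment 1 and from 174053 to 756523 for experiment 2. A single read was therefore worth 17.4 to 63.7 CPM in experiment 1, and 1.32 to 5.75 CPM in experiment 2. A library without a read of a gene could have held up to 3 reads, or 52.1 to 191 CPM in experiment 1 and 3.97 to 17.2 CPM in experiment 2 (counting error only). The genes had 120 reads in all 12 libraries of experiment 1 (2 to 21 per library) and 5603 in those of experiment 2 (239 to 1042 per library). LP replicate 2 stood apart from the other libraries of experiment 1: its total over all transcripts was 3.31 times that over 1 transcript per gene, its TMM scaling factor was 1.41, and Miox, a marker of the proximal tubule with 6 to 70 reads in the other 11 libraries, had 0 reads in it. Kidney markers were present in experiment 2, with Lrp2 of the proximal tubule at 218 to 760 CPM and the thick limb transporter Slc12a1 at 36.9 to 172 CPM. In whole tissue, fewer cells of a type and less RNA per cell cannot be told apart.

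PRL was compared with SAL first, since experiment 2 was read more deeply. Of the 9 genes listed in experiment 2, S100g stood out with a mean of 144 ± 43.2 CPM (SD, n = 6) in PRL and 244 ± 66.2 CPM in SAL. The levels of Kl, Calb1, Umod, Egf, Atp2b1, Vdr and Casr differed between the groups by less than the spread between animals. Of the 9, 8 passed the filter of reads in at least 6 of the 12 libraries. None of the 8 passed an adjusted p of 0.05 in edgeR's quasi-likelihood test, and neither did any of the 10696 genes tested (0% called, and 0 called by DESeq2 and limma-voom too). DESeq2 gave S100g an unadjusted p of 0.000562 and no adjusted p. At an unadjusted p under 0.05, 1 of the 8 was past the threshold, S100g in the lower direction, against 522 of all genes (4.88%, with 2.54% higher and 2.34% lower in PRL). The median log2 fold change of the 8 was -0.07, and that of all genes was 0.03.

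S100g (transcript NM_009789.2), which encodes the small cytosolic calcium carrier, had 281, 203, 132, 316, 251 and 279 CPM in SAL replicates 1 to 6, from 548 reads in all. In PRL replicates 1 to 6 it had 159, 163, 67.2, 161, 190 and 122 CPM, from 346 reads. All 6 PRL libraries were below the SAL median of 265 CPM, 2 of them were below every SAL library, and the groups overlapped because SAL replicate 3 was low. The log2 fold change was -0.85 (SE 0.24, 95% interval -1.33 to -0.38) with an unadjusted p of 0.000814 and an adjusted p of 0.249 in edgeR. The difference in mean CPM was -100.1 CPM (two-sided exact permutation test, n = 6 and 6, p = 0.0173, where the smallest possible p is 0.00216). By unadjusted p, S100g was at position 35 of the 10696 genes.

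The size of the S100g difference varied little with the processing, and its call did vary. The log2 fold change was between -1.02 and -0.74 over all alternatives. The adjusted p was 0.0306 without a filter on low counts, where 92 genes were called in all. It was 0.207 with upper quartile scaling, 0.236 with limma-voom and 0.355 with a stricter filter. Without TMM it was 0.416, and with all transcripts added it was 0.9999. With any 1 library left out it was between 0.0715 and 0.707. The exact test gave p between 0.00216 and 0.0325 with single libraries left out. Without both replicates numbered 6, which had low levels of several of these genes, the difference was -88.8 CPM (exact permutation test, p = 0.0635).

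Calb1 (NM_009788.4), the larger calbindin and a marker of the distal convoluted and connecting tubules, had 649, 583, 781, 433, 487 and 304 CPM in SAL replicates 1 to 6. It had 569, 518, 411, 492, 948 and 275 CPM in PRL replicates 1 to 6. The highest and lowest of the 12 values were both in PRL, so the SAL range lay inside the PRL range. Group means were 539 ± 168 CPM in SAL against 536 ± 227 CPM in PRL, from 1119 and 1205 reads. Between PRL and SAL the log2 fold change was -0.09 (SE 0.22, 95% interval -0.53 to 0.35, exact permutation test of mean CPM, p = 0.972).

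The 2 calbindins were also compared within each library, where the library total cancels. There were 0.170 to 0.916 reads of S100g per read of Calb1 in SAL (median 0.475) and 0.163 to 0.443 in PRL (median 0.297). The mean log2 ratio of PRL minus that of SAL was -0.73, with overlapping groups (exact permutation test, p = 0.102). This was 1 of 6 such ratios, for which the exact p was between 0.102 and 0.887, so that no ratio within libraries passed 0.05. S100g per read of Klotho had medians of 2.77 in SAL and 1.91 in PRL (p = 0.136, exact permutation test).

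**Figure D1:**
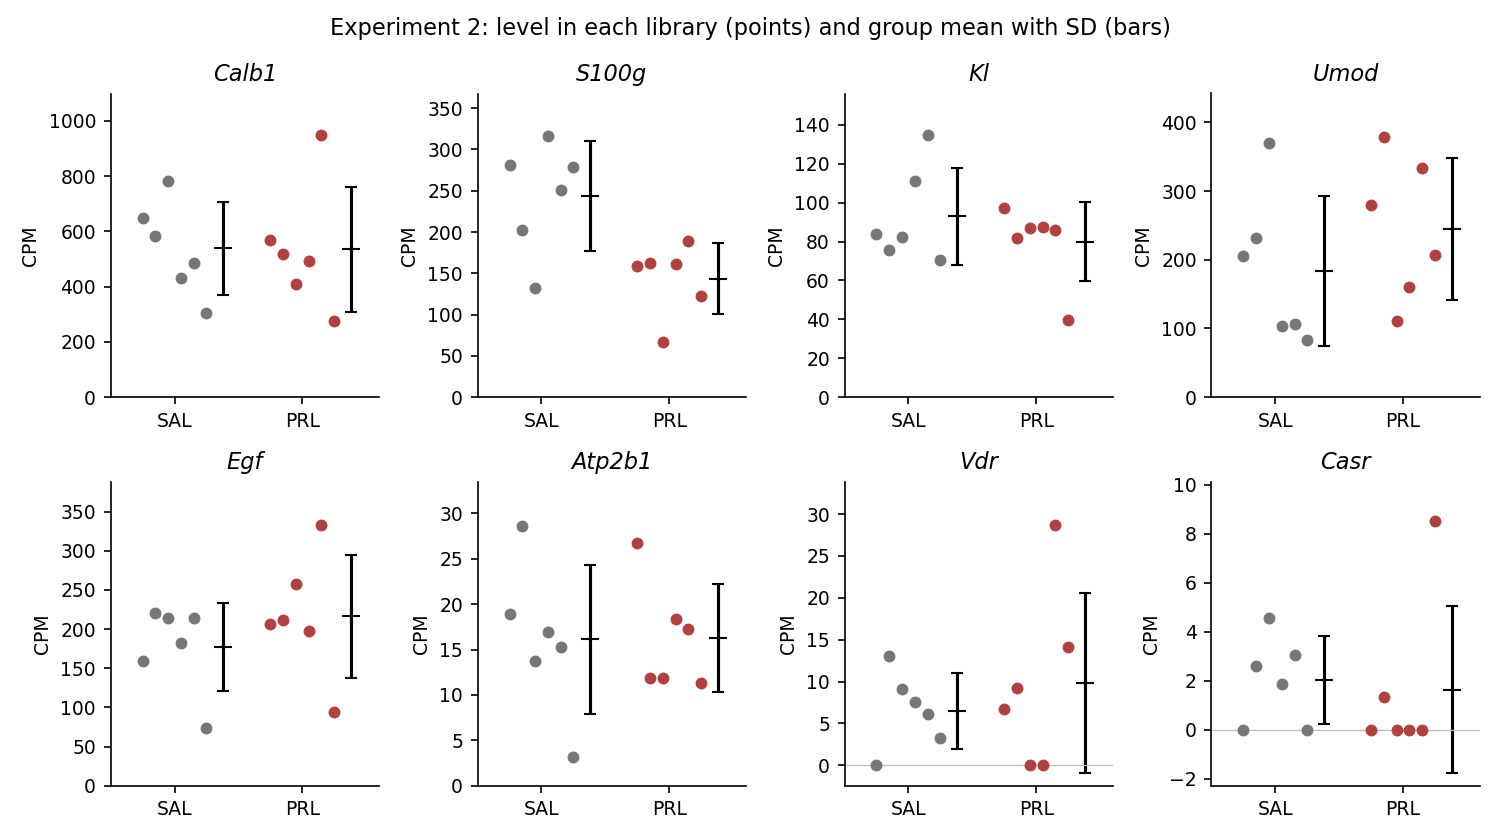
Level in CPM (y axes, linear, each gene on its own scale) of 8 genes in the SAL and PRL libraries of experiment 2, ordered from replicate 1 to 6, with black bars for the group mean and SD (n = 6). All 6 PRL points of S100g are below the SAL median of 265 CPM, and for the other genes the groups overlap over most of their range.

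Atp2b1 encodes the pump through which calcium leaves the cell on the blood side. It was sparse, with 36 reads in SAL and 39 in PRL. Levels were 18.9, 28.6, 13.7, 16.9, 15.3 and 3.20 CPM in SAL replicates 1 to 6, and 26.8, 11.9, 11.9, 18.4, 17.2 and 11.3 CPM in PRL replicates 1 to 6. The lowest value, in SAL replicate 6, rested on 1 read, and the range of PRL lay inside that of SAL. Means were 16.1 ± 8.22 CPM in SAL against 16.3 ± 5.98 CPM in PRL (log2 fold change -0.06, SE 0.39, exact permutation test, p = 0.985). The reads of Atp2b1 were spread over 8 listed transcripts that can share reads, and the transcript used is 1 of them.

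The transcript used for Trpm6 had 1 read in the 12 libraries, in PRL replicate 2, and was not tested. With all 4 listed transcripts added, SAL replicate 4 and PRL replicate 2 had 2 reads each. Trpm6 was not listed in experiment 1. Trpm7, a related channel and kinase of wider expression, had means of 25.5 CPM in SAL against 23.6 CPM in PRL. Neither apical entry channel of the distal tubule could thus be compared. The part of depth and that of the alignment to mouse transcripts in this was not tested. Slc8a1, the sodium-calcium exchanger that works beside Atp2b1, had 24.4 CPM in SAL against 17.7 CPM in PRL (log2 fold change -0.61, unadjusted p = 0.125 in edgeR).

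Kl (NM_013823.2) had 83.8, 75.4, 82.2, 111, 135 and 70.4 CPM in SAL replicates 1 to 6. In PRL replicates 1 to 6 it had 97.1, 82.0, 87.0, 87.4, 86.2 and 39.7 CPM. Of the PRL libraries, 5 were within 82.0 to 97.1 CPM, and replicate 6 was lower than any SAL library. Means were 92.9 ± 24.8 CPM in SAL against 79.9 ± 20.3 CPM in PRL, a log2 fold change of -0.29 (SE 0.24, 95% interval -0.77 to 0.20, exact permutation test, p = 0.368). The variance between libraries was 2.25 times in SAL and 1.93 times in PRL that expected from counting alone, against 15.9 and 22.4 times for Calb1. At an equal relative spread this ratio rises with reads (393 for Kl and 2324 for Calb1), so it does not rank the genes by spread.

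The receptors Vdr and Casr were near the limit of detection. Vdr (NM_009504.4) had 14 reads in SAL and 21 in PRL. Its levels were 0, 13.01, 9.13, 7.52, 6.12 and 3.20 CPM in SAL replicates 1 to 6 and 6.70, 9.25, 0, 0, 28.7 and 14.2 CPM in PRL replicates 1 to 6. Libraries without a read occurred in both groups, and the highest value, in PRL replicate 5, rested on 5 reads (exact permutation test, p = 0.561). Casr had 4 reads in each group, of which 3 in PRL were in replicate 6 (p = 0.859 in the exact permutation test). Neither receptor differed beyond the spread between animals, and their 95% intervals were wide, from -0.81 to 1.62 for Vdr and from -2.03 to 1.75 for Casr on the log2 scale.

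Umod (NM_001278605.1) had 205, 232, 370, 103, 107 and 83.2 CPM in SAL replicates 1 to 6. In PRL replicates 1 to 6 it had 280, 379, 111, 161, 333 and 207 CPM. Of the SAL libraries, 3 were at or below 107 CPM, a level under that of every PRL library, while SAL replicate 3 was close to the highest PRL library. Means were 183 ± 109 CPM in SAL against 245 ± 104 CPM in PRL, from 362 and 648 reads. The log2 fold change of 0.43 (SE 0.28, 95% interval -0.13 to 0.99) did not pass the test (adjusted p = 0.998 in edgeR, exact permutation test, p = 0.327).

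Egf (NM_010113.4) had 159, 221, 215, 182, 214 and 73.6 CPM in SAL replicates 1 to 6, and 206, 211, 257, 198, 333 and 93.6 CPM in PRL replicates 1 to 6. In both groups replicate 6 was the lowest library, and the other 5 were at 159 to 221 CPM (SAL) and 198 to 333 CPM (PRL). Means were 178 ± 56.2 CPM in SAL against 217 ± 78.6 CPM in PRL (log2 fold change 0.20, SE 0.24, 95% interval -0.28 to 0.68, exact permutation test, p = 0.340). Reads of Umod per read of Egf had medians of 1.09 in SAL and 1.18 in PRL (exact permutation test, p = 0.632).

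How the genes varied together was described over the 12 libraries of experiment 2, which share the scaling to library totals, and which differ in depth and group. Spearman rho was 0.67 between Calb1 and Umod, 0.53 between Calb1 and Egf and 0.45 between Umod and Egf. S100g had a rho of 0.10 with Calb1, -0.43 with Umod and -0.33 with Egf. Kl had a rho of 0.10 with Calb1, 0.18 with S100g, -0.28 with Umod and 0.24 with Egf. Calb1, Umod and Egf had positive values among themselves, and those of S100g and Kl with them were between -0.43 and 0.24. Of 3617 genes with at least 100 reads, those with the highest rho to Calb1 were Cltrn (0.97), Slc25a20 (0.97) and Adi1 (0.96). For Umod they were Tufm (0.98), Cyp4a10 (0.97) and Cyp4a30b (0.96), and for S100g Cnpy2 (0.85), Spp2 (0.83) and Atxn7l3b (0.82). In experiment 1 the rho of these 9 pairs was between -0.53 and 0.35, from sparse counts.

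Other transporters of the thick limb and distal tubule were set beside these genes. Of 10 tested thick limb genes, 1 was past an unadjusted p of 0.05, in the higher direction, and the median log2 fold change was 0.30. This gene was Slc9a3, an apical sodium-hydrogen exchanger that is not confined to the thick limb. Its means were 10.4 CPM in SAL against 21.2 CPM in PRL (log2 fold change 0.89, p = 0.0491 and adjusted p = 0.998 in edgeR, exact permutation test, p = 0.0628). The sodium-potassium-chloride cotransporter Slc12a1 had 71.4 CPM in SAL against 95.9 CPM in PRL. Claudin 10 (Cldn10), which forms pores between cells and was the gene of highest mean in the list, had a log2 fold change of -0.10. Cldn16, needed for magnesium and calcium passage between thick limb cells, had 8.91 CPM in SAL against 17.1 CPM in PRL (log2 fold change 0.78, unadjusted p = 0.0707 in edgeR).

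Of 15 tested genes of distal calcium and magnesium transport, 0 were past an unadjusted p of 0.05, with a median log2 fold change of -0.02. They included the thiazide-sensitive cotransporter Slc12a3, with 47.2 CPM in SAL against 48.2 CPM in PRL (log2 fold change 0.10), which marks the distal convoluted tubule. Pcbd1, which encodes a dehydratase of pterin metabolism, and Fxyd2, a subunit of the sodium pump, were the genes of highest mean in this list. Their log2 fold changes were -0.28 and 0.11. Trpv6, the relative of Trpv5, was not tested because it had too few reads.

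Of 12 tested genes of the hormone axis that controls calcium and phosphate, 1 was higher and 1 was lower at an unadjusted p of 0.05, with a median of -0.16. Cyp24a1, the enzyme that inactivates vitamin D, had 56.8, 31.2, 32.0, 5.64, 15.3 and 25.6 CPM in SAL replicates 1 to 6, from 56 reads. It had 11.7, 9.25, 3.95, 9.20, 28.7 and 8.51 CPM in PRL replicates 1 to 6, from 25 reads. Of the PRL libraries, 5 were below the SAL median, and replicate 5 was above it. In edgeR the log2 fold change was -1.33 (p = 0.00383, adjusted p = 0.402), and the exact permutation test of mean CPM gave p = 0.0649.

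Slc9a3r1, a scaffold that holds phosphate transporters at the brush border, had 10 reads in SAL and 35 in PRL. Levels were 0 to 7.52 CPM in SAL (median 4.88) and 0 to 18.4 CPM in PRL (median 17.1). Of the PRL libraries, 5 were above every SAL library, and replicate 3 had no read. PRL had a log2 fold change of 1.52 (p = 0.00784, adjusted p = 0.620 in edgeR, exact permutation test, p = 0.0303). The sodium-phosphate cotransporter Slc34a1 and the G protein subunit Gnas, the genes of highest mean in the list, had log2 fold changes of 0.40 and 0.20. Of 8 tested genes that process Umod and Egf in the cell or receive Egf, 0 were past an unadjusted p of 0.05 (median -0.16). Among these, the protease hepsin (Hpn), which releases Umod, had 69.8 CPM in SAL against 59.1 CPM in PRL. The chaperone Hspa5 and the protease Prss8 had log2 fold changes of -0.14 and 0.21.

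**Figure D2:**
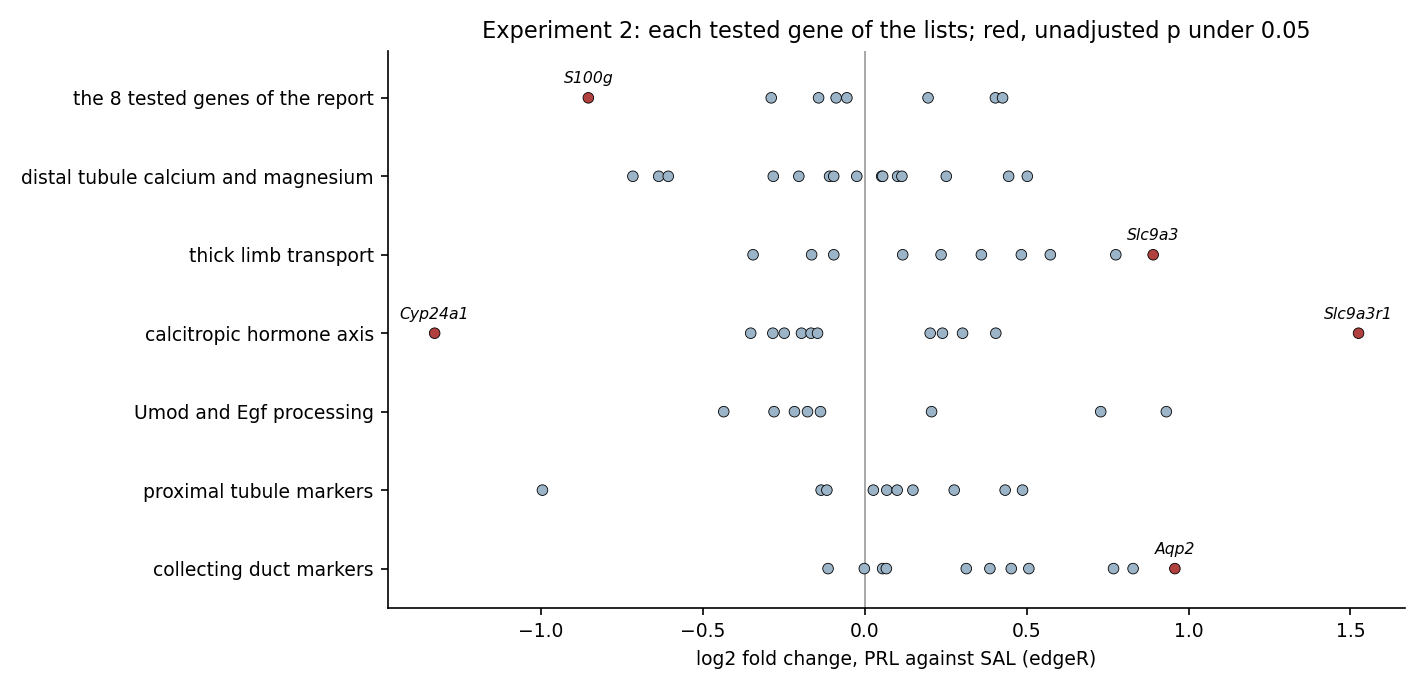
Log2 fold change of PRL against SAL (x axis, edgeR) for every tested gene of 7 lists (rows), 1 point per gene, with red for an unadjusted p under 0.05. Red points are S100g at -0.85, Slc9a3 at 0.89, Cyp24a1 at -1.33, Slc9a3r1 at 1.52 and Aqp2 at 0.96, and the other points spread to both sides of 0.

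Markers of other cells overlapped between SAL and PRL in their summed levels. Of 10 tested proximal tubule markers, 0 were past an unadjusted p of 0.05, and their sum was 1220 to 2416 CPM in SAL and 1336 to 2776 CPM in PRL. The listed collecting duct markers summed to 448 to 849 CPM in SAL and 447 to 833 CPM in PRL, and 1 of the 11 tested was past the threshold, the water channel Aqp2 (log2 fold change 0.96). None of the 9 tested markers of glomerulus and endothelium, 5 of blood, 5 of immune cells and 6 of adipose and adrenal tissue was past it. Adipose and adrenal markers summed to 58.3 to 266 CPM in SAL and 102 to 289 CPM in PRL, and blood markers to 9595 to 18117 CPM and 8908 to 19490 CPM. Of these lists, Cubn, Kap, Ahsp, Ptprc, Adgre1, Cd3e, Star and Cyp11b1 were not listed in experiment 2. The summed immune markers were at 57.6 to 130 CPM (SAL) and 55.4 to 149 CPM (PRL), and those of glomerulus and endothelium at 112 to 169 and 113 to 175 CPM. Because the S100g mRNA is short, 83 tested ribosomal protein genes, which are also short, were set beside it (a list added after the data were seen). Their median log2 fold change was -0.09, with 0 higher and 1 lower at an unadjusted p of 0.05. Regardless of p, 24 of them were higher and 59 lower in PRL, beside 5642 higher and 5054 lower of all genes tested. The part of mRNA length in the S100g difference was not tested.

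In experiment 1 the same genes were compared over the seasonal cycle, at a much lower depth. Of the 10 genes, 6 were listed, and all 6 passed the filter of reads in at least 4 of 12 libraries, with 8 (Egf) to 35 (Calb1) reads each in total. Vdr, Trpm6 and Casr were not listed there. No gene of the 6 passed an adjusted p of 0.05 in any comparison, where 1 of 5086 genes (0.0197%) was called between SP12wk and LP, 7 (0.138%) between SP28wk and SP12wk, 11 (0.216%) between SP28wk and LP and 14 (0.275%) over the 3 groups. None of the 6 had an unadjusted p under 0.05 in edgeR either, where 7.27% of all genes had one between SP12wk and LP (4.58% higher and 2.69% lower), 6.1% between SP28wk and SP12wk (4.6% higher and 1.49% lower), 8.61% between SP28wk and LP (6.69% higher and 1.93% lower) and 7.55% over the 3 groups. The comparisons share groups, and the smallest p an exact test of 4 against 4 libraries can give is 0.0286.

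Kl had the largest mean in SP12wk. It had 2, 0, 1 and 1 reads in LP replicates 1 to 4, 2, 2, 2 and 6 reads in SP12wk and 2, 3, 0 and 3 reads in SP28wk. These made 94.1, 0, 55.5 and 38.8 CPM under LP, 81.7, 127, 100.4 and 170 CPM at SP12wk, and 79.0, 124, 0 and 52.1 CPM at SP28wk. Of the SP12wk libraries, 3 were above every LP library, and SP28wk overlapped with both other groups. The mean was 120 ± 38.1 CPM in SP12wk and 47.1 ± 39.0 CPM in LP (log2 fold change 1.45, SE 0.89, 95% interval -0.29 to 3.20, adjusted p = 0.670 in edgeR, exact permutation test, p = 0.0571). SP28wk had 63.9 ± 52.0 CPM, a log2 fold change of -0.89 (SE 0.78) from SP12wk (exact permutation test, p = 0.114). Without LP replicate 2, the log2 fold change of SP12wk against LP was 1.07, and over the 3 groups the exact p was 0.1003.

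S100g had 1, 0, 0 and 4 reads in LP, 3, 0, 1 and 6 in SP12wk and 3, 1, 7 and 4 in SP28wk. The levels were 47.0, 0, 0 and 155 CPM under LP, 123, 0, 50.2 and 170 CPM at SP12wk, and 119, 41.5, 199.96 and 69.5 CPM at SP28wk. Every SP28wk library had a read, and the 3 groups overlapped. Means were 50.6 ± 73.3, 85.6 ± 75.3 and 107 ± 69.5 CPM in LP, SP12wk and SP28wk, with a log2 fold change of 1.13 (SE 0.81) between SP28wk and LP (exact permutation test, p = 0.286). With single libraries left out it was between 0.57, without SP28wk replicate 3, and 2.69, without LP replicate 4, which held 4 of the 5 LP reads of S100g. Over the 3 groups the exact p was 0.528.

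Calb1 was the gene of the set with most reads in experiment 1. Its LP libraries had 141, 56.1, 222 and 77.7 CPM, those of SP12wk 40.9, 0, 251 and 141 CPM, and those of SP28wk 237, 41.5, 85.7 and 69.5 CPM. High and low libraries occurred in each group, and the means of 124 ± 74.5, 108 ± 112 and 108 ± 87.7 CPM did not differ beyond the spread (exact permutation test over the 3 groups, p = 0.958). The 95% interval of the log2 fold change between SP12wk and LP was -1.36 to 1.57, so that a change of more than 2-fold in either direction was within it.

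**Figure D3:**
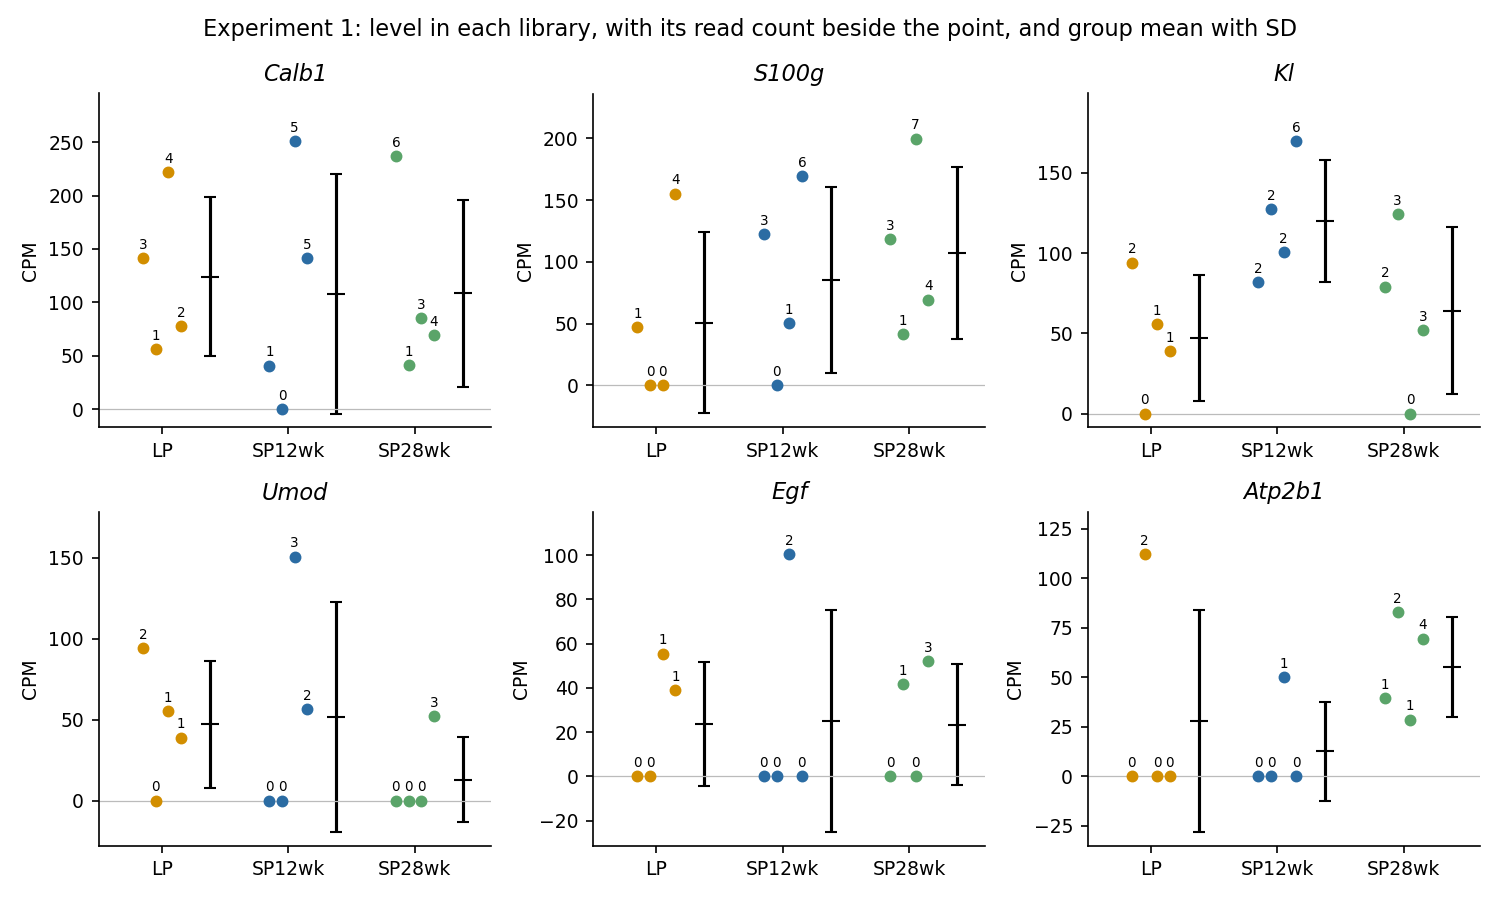
Level in CPM (y axes, linear, each gene on its own scale) of 6 genes in the LP, SP12wk and SP28wk libraries of experiment 1, ordered from replicate 1 to 4, with the read count printed at each point and black bars for the group mean and SD (n = 4). No point rests on more than 7 reads, 3 SP12wk points of Kl are above every LP point, and the groups overlap for all 6 genes.

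Umod and Egf, at 12 and 8 reads, were at the limit of what these libraries could show. Umod had 94.1, 0, 55.5 and 38.8 CPM under LP, 0, 0, 151 and 56.5 CPM at SP12wk and 0, 0, 0 and 52.1 CPM in SP28wk. It had a read in 3 of 4 LP, 2 of 4 SP12wk and 1 of 4 SP28wk libraries (exact permutation test over the 3 groups, p = 0.503). Egf had 0, 0, 55.5 and 38.8 CPM under LP, 0, 0, 100.4 and 0 CPM at SP12wk and 0, 41.5, 0 and 52.1 CPM in SP28wk, with means between 23.4 and 25.1 CPM.

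The transcript used for Atp2b1 had 2 reads in LP, both in replicate 2, and 1 in SP12wk, in replicate 3. With all 8 listed transcripts added, SP12wk replicate 4 had 1 read too. In SP28wk the transcript used had 1, 2, 1 and 4 reads, so that each of the 4 libraries had one. Atp2b1 passed the filter on low counts only through the SP28wk libraries, so its fold changes and tests against that group support nothing. The levels in SP28wk were 39.5, 83.0, 28.6 and 69.5 CPM, overlapping with the single libraries of the other groups at 112 and 50.2 CPM. SP28wk and SP12wk had means of 55.1 ± 25.4 and 12.5 ± 25.1 CPM (log2 fold change 2.14, SE 1.23, adjusted p = 0.902 in edgeR, exact permutation test, p = 0.0857). That log2 fold change was between 1.69 and 3.82 with single libraries left out. The highest was without SP12wk replicate 3, which held its group's only read of the transcript used. LP had 28.0 ± 56.1 CPM, which was 0 in 3 of its 4 libraries. Without LP replicate 2, the log2 fold change between SP28wk and LP went from 1.41 to 3.82 and remained within its error (adjusted p = 0.882 in edgeR).

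**Figure D4:**
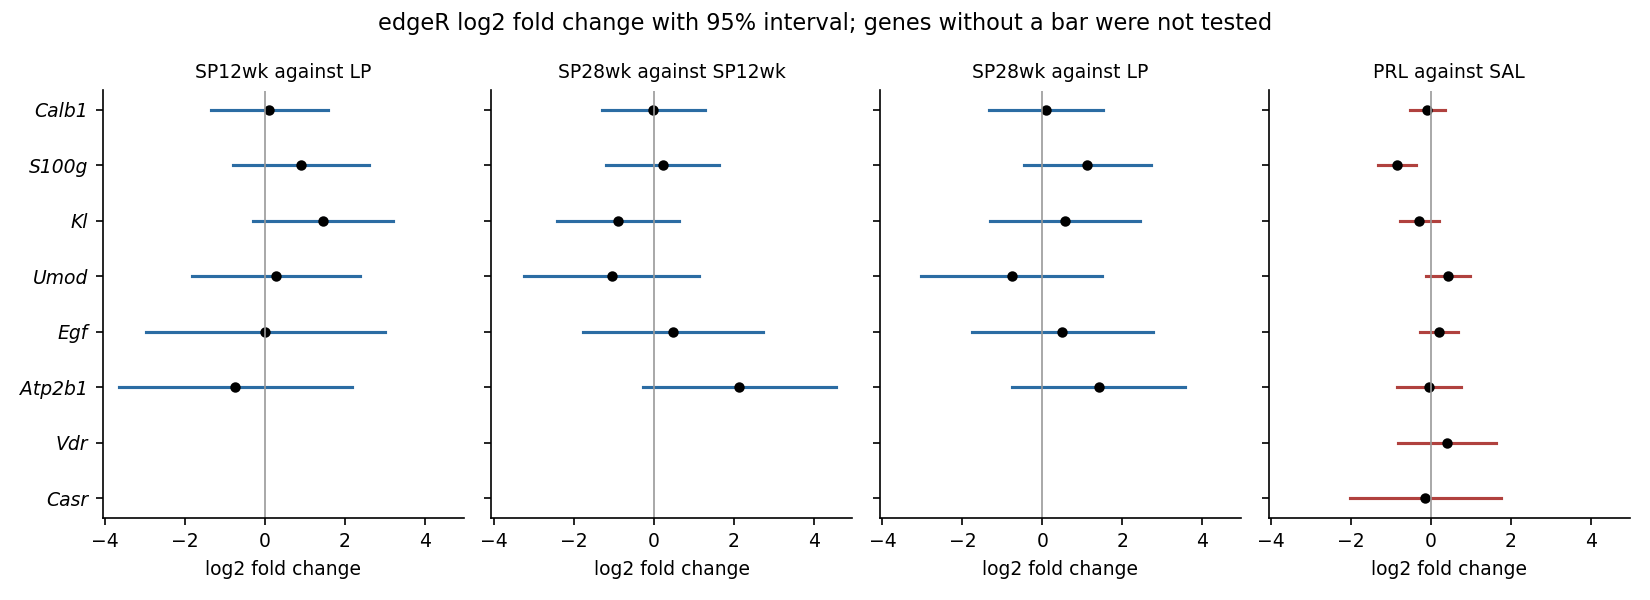
Log2 fold change (points) with 95% interval (lines) from edgeR for the tested genes in 4 comparisons (panels), on 1 shared x axis. In the 3 panels of experiment 1 every interval includes 0 and most are several units wide, and in the panel of PRL against SAL the interval of S100g, -1.33 to -0.38, is the only one that does not include 0.

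In the wider lists of experiment 1, Pth1r, the receptor of parathyroid hormone, had 3, 1, 0 and 1 reads in LP and 4, 2, 7 and 11 in SP12wk. Its means were 59.0 CPM in LP and 238 CPM in SP12wk, and 3 SP12wk libraries were above every LP library (log2 fold change 2.13, p = 0.00468, adjusted p = 0.575 in edgeR, exact permutation test, p = 0.0571). It was the gene past an unadjusted p of 0.05 among 9 tested genes of the hormone axis in that comparison, and SP28wk, at 102 CPM, was between the other groups.

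Pcbd1 averaged 223 CPM under LP, 507 CPM after 12 weeks of SP and 738 CPM after 28 weeks. Between SP28wk and LP its log2 fold change was 1.92 (p = 0.000229, adjusted p = 0.0832 in edgeR, exact permutation test, p = 0.0571), with 3 SP28wk libraries above every LP library. Over the alternatives the log2 fold change of Pcbd1 was between 1.52 and 3.19 and its adjusted p between 0.000577 and 0.996. The lowest adjusted p and the highest log2 fold change were those without LP replicate 4, which held 15 of the 21 LP reads of Pcbd1. Of the 8 tested genes of distal calcium and magnesium transport, 1 was higher in SP12wk than in LP and 2 were higher in SP28wk than in LP at an unadjusted p of 0.05. The second of the latter was Atp2b4, another calcium pump, with 0 reads in LP and 5 in SP28wk. Atp2b4 passed the filter on low counts only through libraries of SP12wk and SP28wk, so its place in that count supports nothing.

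Of 5 tested thick limb genes, 2 were lower in SP28wk than in LP at an unadjusted p of 0.05, and both of these rested on LP replicates 2 and 3. Slc12a1 had 0, 3, 7 and 0 reads in LP and 0, 0, 1 and 1 in SP28wk (adjusted p = 0.529 in edgeR, exact permutation test, p = 0.429). Ppp1r1a, a phosphatase inhibitor of the thick limb, had 0, 7, 6 and 0 reads in LP and 1, 0, 0 and 3 in SP28wk (exact permutation test, p = 0.429). Hpn had 0 reads in LP and 1 in each SP28wk library, and it too passed the filter only through SP12wk and SP28wk. No other of the 5 tested genes that process Umod and Egf was past an unadjusted p of 0.05. In the same comparison, 14 of 80 tested ribosomal protein genes (17.5%) were higher and 0 were lower at an unadjusted p of 0.05. Of all genes tested, 6.69% were higher and 1.93% were lower. The median log2 fold change was 0.60 for the ribosomal protein genes beside 0.18 for all genes. Immune markers summed to 0 CPM in every LP library, 0 to 63.7 CPM at SP12wk and 0 to 114 CPM at SP28wk, from a few reads each, and too few for a test. Blood markers summed to 14205 to 28899 CPM in LP, 17519 to 44112 CPM at SP12wk and 20995 to 33240 CPM at SP28wk. Collecting duct markers summed to 0 to 235 CPM in LP, 123 to 402 CPM at SP12wk and 83.0 to 277 CPM at SP28wk. Of 7 tested proximal tubule markers, 1 was lower in SP28wk than in LP at an unadjusted p of 0.05, and of 11 tested markers of collecting duct, glomerulus and endothelium, blood and adipose tissue none was past it in any comparison. The part of these values and of the ribosomal protein genes in the results above was not tested.

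Set side by side, Calb1, Umod and Egf had group means of 108 to 124, 13.02 to 51.8 and 23.4 to 25.1 CPM in the males of experiment 1 and of 536 to 539, 183 to 245 and 178 to 217 CPM in the females of experiment 2. Kl had 47.1 to 120 CPM and 79.9 to 92.9 CPM, respectively. The transcript that stands for Egf differed between the experiments. The tables were scaled separately, and sex, photoperiod history, flow cell and depth all differ between them and cannot be told apart, so no test was made.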

How the data were processed

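Samples were grouped by photoperiod or injection as in GEO's labels. Per the methods, the authors used Guppy for basecalling, Porechop for adapters, Filtlong for read selection and Minimap2 for alignment to the mouse genome. The labels' processing notes also name Salmon, with no role. The authors deposited estimated counts for 36662 (experiment 1) and 71590 (experiment 2) mouse RefSeq transcripts, not normalized. Of these transcripts, 83.9% and 70.9% shared all their counts with another transcript, so a read may be counted more than once. A hamster read far from its mouse transcript may be lost, so levels are not compared between genes. The methods name a direct cDNA kit and the labels a PCR-cDNA kit, and without molecular identifiers limits for genes with no read cover counting error only. No genome or sequence table was used here, and no sequences or positions are given.

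For each gene the transcript with the highest total in the experiment was taken and rounded. R 4.3.3 and edgeR 4.0.16 (quasi-likelihood, TMM, 1 fit per experiment, no covariate) were used with Benjamini-Hochberg adjustment over all genes read in 4 of 12 (experiment 1) or 6 of 12 (experiment 2) libraries or more, threshold 0.05. Mean CPM was compared by two-sided exact permutation tests (scipy 1.17.1). Scripts were tested on simulated data. Libraries of a group differed by more than counting allows (chi-square of 1.89 to 10.1 per degree of freedom). Per the methods, animals lived in groups, and those of experiment 1 were taken in turn as their weeks of SP ran out, so the date of collection and the photoperiod group cannot be told apart. P-values are set against the spread between the libraries of these animals, counting error included, and do not cover the date of collection. Alternatives were all transcripts of a gene added, DESeq2 1.42.0, limma-voom (limma 3.58.1), no TMM, upper quartile scaling, other filters, a block for replicate number and each library left out. The tables held counts, so settings of a pseudocount meant for CPM tables did not apply.

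The genes, the lists (thick limb transport, distal calcium and magnesium transport, hormone axis, Umod and Egf processing, and markers of proximal tubule, collecting duct, glomerulus and endothelium, blood, immune cells, and adipose and adrenal tissue) and the tests were chosen with earlier results of these data known. Genes were named by rule: the 10 genes, the 2 of highest mean CPM in a list, up to 2 per direction and comparison with an unadjusted p under 0.05, and for each of the 3 genes with most reads the 3 of highest Spearman rho. Slc12a1, Slc12a3, Slc8a1, Trpm7, Trpv6, Cldn16, Hpn in experiment 2, Aqp2 and Miox in experiment 1 were named after their values were seen. Markers other than Miox, Lrp2 and Aqp2 are given as sums. Some genes that the rule names are not reported here.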

Additional observations from a re-analysis of the deposited data

Results flagged for a closer look

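In a group of 4 or 6 libraries, a value was picked out where its gap to the nearest other library, divided by the range of the group, passed Dixon's critical value (0.829 for 4 and 0.625 for 6). Of 35 groups, 7 had such a value. Chance picks about 1 in 20 groups of continuous, normal values, and this rate does not hold for counts near 0. A group with reads in only 1 library always passes, so the number of groups picked out is not set against that rate. Of the 7, 5 were single libraries with 1 to 3 reads of the transcript used, in a group where all others had 0. They were Atp2b1 at 112 CPM in LP replicate 2 and at 50.2 CPM in SP12wk replicate 3, Umod at 52.1 CPM in SP28wk replicate 4, Egf at 100.4 CPM in SP12wk replicate 3 and Trpm6 at 1.32 CPM in PRL replicate 2. Casr had 8.51 CPM, from 3 reads, in PRL replicate 6, where the nearest other library had 1.32 CPM.

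The value with most reads was Kl in PRL replicate 6, at 39.7 CPM from 14 reads, where the nearest other PRL library had 82.0 CPM. PRL replicate 6 also had the lowest Calb1 (275 CPM) and Egf (93.6 CPM) of its group.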

How the results depend on the processing

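With 120 reads of these genes in experiment 1, depth limits every comparison there. Settings of a CPM pseudocount did not apply to counts and were not run. The 10 genes had 0 adjusted calls under all alternatives, except 1, S100g, in PRL against SAL without a filter and with the replicate block. The cause of the changes below was not tested.

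Genes called between SP12wk and LP were 1, and 0 with all transcripts added, DESeq2, limma-voom, no TMM, no filter, the stricter filter and the block (0 to 8 with libraries left out). Between SP28wk and SP12wk 7 were called, and 0 with all transcripts added, 2 with DESeq2 and the stricter filter and 4 with upper quartile scaling (2 to 11 with libraries left out). Between SP28wk and LP 11 were called, and 0 with all transcripts added, 2 with DESeq2, 5 with the stricter filter and 30 with limma-voom (8 to 54 with libraries left out, the highest without LP replicate 4). Over the 3 groups 14 were called, and 0 with all transcripts added, 3 with DESeq2, 6 with the stricter filter and 29 with limma-voom (10 to 40 with libraries left out). Between PRL and SAL 0 were called, and 1 with all transcripts added, 92 without a filter, 94 with the block, 15 without both replicates 6 (an alternative chosen after seeing the data) and 0 to 44 with libraries left out (27 without SAL replicate 6, 26 without PRL replicate 3 and 44 without PRL replicate 4).

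Without TMM, the median log2 fold change of all genes in SP28wk against LP was -0.16 instead of 0.18, in SP12wk against LP -0.17 instead of 0.00 and in SP28wk against SP12wk 0.01 instead of 0.16. The share of higher genes among those at an unadjusted p under 0.05 was 45.6% instead of 77.6%, 43.1% instead of 63.0% and 60.5% instead of 75.5%.

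Replicate numbers did not pair the libraries: deviations of same-numbered libraries correlated at -0.19 to 0.40 in experiment 1 (4 of 12 pairs over 0.1) and -0.27 to 0.35 in experiment 2 (3 of 6). With the block, S100g had an adjusted p of 0.0210 in PRL against SAL, and Calb1 a log2 fold change of 0.013 in SP28wk against SP12wk.

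With no TMM, the log2 fold change reversed to -0.095 for Calb1 in SP12wk against LP, -0.15 for Egf in SP12wk against LP, -0.24 for Calb1 in SP28wk against LP. With limma-voom, the log2 fold change reversed to -0.25 for Calb1 in SP12wk against LP, -0.080 for Umod in SP12wk against LP, -0.053 for Egf in SP12wk against LP, 0.26 for Calb1 in SP28wk against SP12wk, -0.00030 for Egf in SP28wk against LP, 0.023 for Atp2b1 in PRL against SAL. With all transcripts added, the log2 fold change reversed to -0.59 for Egf in SP28wk against SP12wk, -0.42 for Egf in SP28wk against LP, 0.60 for Casr in PRL against SAL. With DESeq2, the log2 fold change reversed to -0.092 for Calb1 in SP28wk against LP. With upper quartile scaling, the log2 fold change reversed to -0.036 for Calb1 in SP28wk against LP. With TMM-scaled totals, the difference in mean CPM reversed to 1.95 for Calb1 in SP12wk against LP, 3.12 for Egf in SP28wk against SP12wk, 7.53 for Calb1 in SP28wk against LP, 7.18 for Egf in SP28wk against LP, -0.550 for Atp2b1 in PRL against SAL. With all transcripts added, the difference in mean CPM reversed to 1.40 for Calb1 in SP12wk against LP, -3.08 for Calb1 in SP28wk against SP12wk, -0.0940 for Trpm6 in PRL against SAL, 1.08 for Casr in PRL against SAL. With both replicates 6 left out, the difference in mean CPM reversed to 1.46 for Calb1 in PRL against SAL, -1.46 for Atp2b1 in PRL against SAL. With single libraries left out, the log2 fold changes that changed sign ran in SP12wk against LP from -0.38 to 0.43 for Calb1, from -2.47 to 1.71 for Atp2b1, from -0.56 to 0.83 for Umod, from -2.47 to 0.47 for Egf. They ran in SP28wk against SP12wk from -0.56 to 0.44 for Calb1, from -0.32 to 0.88 for S100g, from -0.57 to 2.94 for Egf. They ran in SP28wk against LP from -0.44 to 0.37 for Calb1, from -0.57 to 0.93 for Egf. They ran in PRL against SAL from -0.38 to 0.15 for Atp2b1, from -0.39 to 0.19 for Casr. With single libraries left out, the differences in mean CPM that changed sign ran in SP12wk against LP from -63.5 to 20.2 for Calb1, from -28.0 to 12.5 for Atp2b1, from -28.3 to 21.9 for Umod, from -23.6 to 12.2 for Egf. They ran in SP28wk against SP12wk from -42.7 to 47.7 for Calb1, from -9.08 to 49.8 for S100g, from -11.3 to 23.4 for Egf. They ran in SP28wk against LP from -3.39 to 38.1 for Kl, from -58.7 to 16.8 for Calb1, from -9.75 to 10.4 for Egf. They ran in PRL against SAL from -0.471 to 5.27 for Vdr, from -86.1 to 48.5 for Calb1, from -2.44 to 2.64 for Atp2b1, from -1.75 to 0.130 for Casr. The difference for Trpm6 was 0 to 0.264, with 0 without PRL replicate 2. Of these values, none passed its test with all libraries, and Casr reached an exact p of 0.0476 with both replicates 6 left out (-2.16 CPM).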
